A study of Macaca mulatta with 304 samples.

Results

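Day 240 was the last but one of the scheduled blood draws after thoracic irradiation, and the animals drawn there had lived long enough to be sampled well into the late phase of lung injury. The data described here are 12 whole-blood libraries of 304 in the series: the Day 240 library and the pre-irradiation control library of every animal that had both. These were 6 of 28 animals, each compared with itself. The rule used only the draw day and the animal's identity, and no expression value. All were adult rhesus macaques (*Macaca mulatta*, Chinese sub-strain) of 3 to 5 years. B1003 and B1004 were male, and B1502, B1503, B1505 and B2502 were female. The first 5 of these received a single dose of 9.8 Gy to the thorax, the lower dose (LD) of the study, and B2502 received 10.7 Gy, the higher dose (HD). The control library of each animal (0 Gy) was drawn on Day -2. All irradiated animals had been given tramadol or buprenorphine for pain from Day 4 to Day 25, and animals that breathed fast were treated with dexamethasone, a synthetic glucocorticoid. The labels do not say which animals received it or when. With 1 HD animal, the doses were not compared. The 6 animals are also those that survived to this draw, so Day 240 cannot be told apart from survival.

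Whole-blood RNA is a mixture. Most of it comes from neutrophils, lymphocytes and monocytes, with additions from platelets and from reticulocytes, the young red cells that still carry RNA. B cells are among the most radiosensitive cells of the blood and are renewed from the bone marrow. They recognise antigen through a membrane immunoglobulin coupled to the CD79A and CD79B signalling chains, and are held to their fate by the factors PAX5 and EBF1. Red cells arise in the marrow under GATA1 and KLF1 and are filled with haem and haemoglobin before release. The thoracic field holds blood, lymph nodes and marrow of the sternum, ribs and vertebrae as well as lung. In bulk blood, fewer cells of a type and less RNA per cell cannot be told apart, and this applies to every result given here.

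The control libraries held 10851683 to 13575225 counts and the Day 240 libraries 4991825 to 9650177, so Day 240 values rest on fewer reads. The libraries carry a number in their labels whose meaning is not given there. It was 21 to 97 in the 6 controls, higher than in any control in B1003 and B1505 at Day 240, and 0 (S0) in the other 4 Day 240 libraries. Within these pairs Day 240 and the library number cannot be told apart. All 12 libraries had blood identity: PTPRC, the pan-leukocyte antigen CD45, stood at 998.7 CPM (counts scaled to a common library size) or more, while the keratinocyte keratin KRT5, the alveolar surfactant gene SFTPC and the endothelial cadherin CDH5 were at or below 0.451 CPM in each. Other markers of these tissues were not all near 0. Summed, 6 skin genes gave 5.4 to 13.3 CPM per library, 6 lung epithelium genes 14.2 to 54.1 and 4 endothelium genes 0.919 to 5.3. The 6 leukocyte identity genes gave 5800 to 8550 CPM. Every Day 240 library correlated best with the other draws of its own animal over 300 genes chosen for their variation between animals, with r from 0.701 to 0.933 against at most 0.242 for any other animal. The Day 240 libraries of B1503 and B2502 stood apart from the rest: 40.5% and 43.2% of the genes tested differed at least 2-fold from the animal's own control, against 5.35% to 16.5% in the other 4. Results that rest on these libraries are given with and without them.

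Of the 13751 genes tested, 930 (6.76%) differed between Day 240 and control. A gene was called when its adjusted p did not exceed 0.05 and its level changed by 1.5-fold or more. Of these, 448 (3.26%) were higher at Day 240 and 482 (3.51%) were lower. DESeq2 called 2189 genes, of which 58.2% were higher, against 48.2% of the 930. In 879 of the called genes (6.39% of those tested) all 6 animals moved the same way. Called or not, 1113 of the genes tested were higher in all 6 animals and 1798 were lower. A paired test favours genes that move alike, so the 879 is no separate result. The median log2 fold change (log2FC) over all genes was -0.06. The count leaned on single animals: 1.59% of the genes were called without B1503, 1.75% without B1004, 2.32% without B1003 and 4.5% without B1502, against 6.76% with all 6. Without B1503 and B2502 together, 1279 genes (9.3%) were called, 754 (5.48%) higher and 525 (3.82%) lower.

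Among genes with a symbol that moved the same way in every animal, the 5 that fell the most were CCDC141 (log2FC -4.13), KIRREL1 (-3.48), CD72 (-3.08), C16H17orf113 (-3.02) and CD79B (-3.02). CD72, a B cell coreceptor that dampens antigen signalling, and CD79B belong to the B cell list. CCDC141, a coiled-coil protein known from neuronal migration, stood at 0.3 to 19.5 CPM in the controls and at 0 to 0.787 CPM at Day 240. The Day 240 libraries held 0 to 6 counts of it, and the groups overlapped, so its fold change rests on few reads. KIRREL1, an adhesion molecule of the kidney filter, and C16H17orf113 were low in all 12 libraries, at or below 5.51 CPM, so their fold changes rest on few reads. The 5 that rose the most were CSTA (3.75), TSPO2 (3.04), MPP2 (2.65), SLC4A1 (2.64) and KANK2 (2.60). TSPO2, an erythroid membrane protein, and SLC4A1 belong to the erythroid list. MPP2, a membrane scaffold, rose from 1.01 to 4.96 CPM in the controls to 3.15 to 50 CPM at Day 240. KANK2, an adaptor between adhesions and the cytoskeleton, rose from 3.19 to 13.3 CPM to 14.2 to 217.4 CPM, with no overlap between the groups. MPP2 missed the test without B1503 (log2FC 2.30) and C16H17orf113 without B1004 (-2.72), while the other 8 genes passed without any 1 animal.

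**Figure D1:**
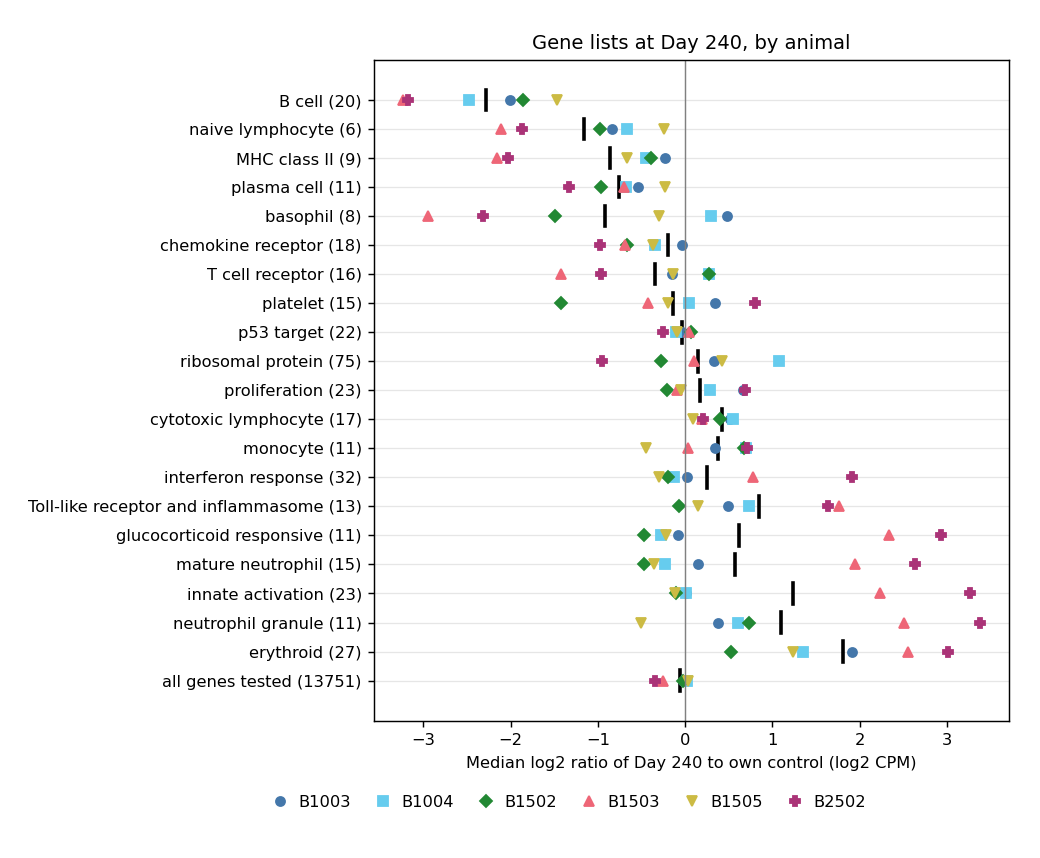
Median log2 ratio of Day 240 to the animal's own control for 20 gene lists and for all genes tested, with the number of genes tested in brackets. Each symbol is 1 animal and each black bar the median of the fitted log2 fold changes. B cell medians lie between -3.23 and -1.47 and erythroid medians between 0.53 and 3.01, while B1503 and B2502 part from the other 4 animals in the neutrophil, innate activation and glucocorticoid lists.

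B cell genes were lower at Day 240 in every animal. Of 20 B cell genes tested, 19 fell and none rose, beside 3.51% called lower over all genes tested. The median log2FC was -2.29 against -0.06 over all genes. The exception was VPREB3, a surrogate light chain relative of B cell precursors, at -0.99. All 20 were lower in all 6 animals, against 1798 of the 13751 genes tested. In 18 of 20 every Day 240 library lay below every control library, against 460 of the 13751 (3.35%).

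CD79B, which carries the signal of the B cell antigen receptor, lies on chromosome 16 from 60488425 to 60492051 on the minus strand (Mmul_10). Its level before irradiation was 206.1 CPM in B1003, 329.8 in B1004, 152.9 in B1502, 152.4 in B1503, 163.7 in B1505 and 364.7 in B2502. At Day 240 the same animals had 50.7, 41.6, 14.5, 13.2, 44.8 and 17 CPM. All 6 Day 240 libraries lay well below the lowest control, and B1502, B1503 and B2502 were the lowest. The fitted fall was 8.09-fold over the 6 animals (log2FC -3.02, SE 0.33, adjusted p = 0.00155).

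PAX5, the factor that keeps B cells committed, ranged from 144.4 to 385.4 CPM in the controls. At Day 240 it was at 44.4, 59.3, 31.2, 10, 37.7 and 26.5 CPM in the same animal order. The groups did not overlap, and B1503 was the lowest at Day 240 (log2FC -2.86). MS4A1, which encodes CD20, ranged from 126.6 to 442.7 CPM and then from 24.4 to 68.7 CPM (log2FC -2.02). TNFRSF13C, the receptor for the survival factor BAFF, fell by 1.98 on the log2 scale, and FCRLA, an Fc receptor-like protein of B cells, fell by 2.41 with the smallest adjusted p of these genes (0.000285). Neither gene's groups overlapped. MS4A1 missed the test when B1503 was left out (-1.96).

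The remaining members fell from 1.49 on the log2 scale in P2RX5, an ATP-gated channel, to 2.76 in CD22, an inhibitory lectin of B cells. Between these lay the kinase BLK (-2.51), the signalling chain CD79A (-2.56), the early factor EBF1 (-2.23), the adaptor BLNK (-1.98), the complement receptor CR2 (-1.98) and the follicle-homing receptor CXCR5 (-1.91). By animal the median of the 20 genes was -2.01 in B1003, -2.48 in B1004, -1.86 in B1502, -3.23 in B1503, -1.47 in B1505 and -3.17 in B2502. The 2 animals whose libraries stood apart had the lowest medians. Without them 19 of 20 genes were still called lower, with a median of -1.89.

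The promoter of EBF1 is shown because this gene fell with the rest of the list and carries an octamer, the site known to bind OCT factors in B cell promoters. The octamer ATTTGCAT, or its reverse complement ATGCAAAT on the same strand, occurred in the 250 bases before the gene start of 3 of 20 B cell genes (15.0%, EBF1 among them), in 0 of 27 erythroid genes and in 1.56% of the 13655 genes with a RefSeq promoter. The sequence is from RefSeq for Mmul_10, written 5′ to 3′ in the direction of the gene. It is chr6:156519712-156519961, minus strand, with the octamer in capitals beginning 78 bases before the start.
EBF1 promoter: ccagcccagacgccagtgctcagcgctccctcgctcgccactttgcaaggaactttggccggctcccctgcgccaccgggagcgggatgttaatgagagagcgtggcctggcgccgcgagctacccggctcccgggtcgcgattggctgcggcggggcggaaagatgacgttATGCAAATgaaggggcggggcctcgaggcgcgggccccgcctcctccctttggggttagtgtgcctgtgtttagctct
A match of letters is not a binding site, and nothing was measured at these positions.

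**Figure D2:**
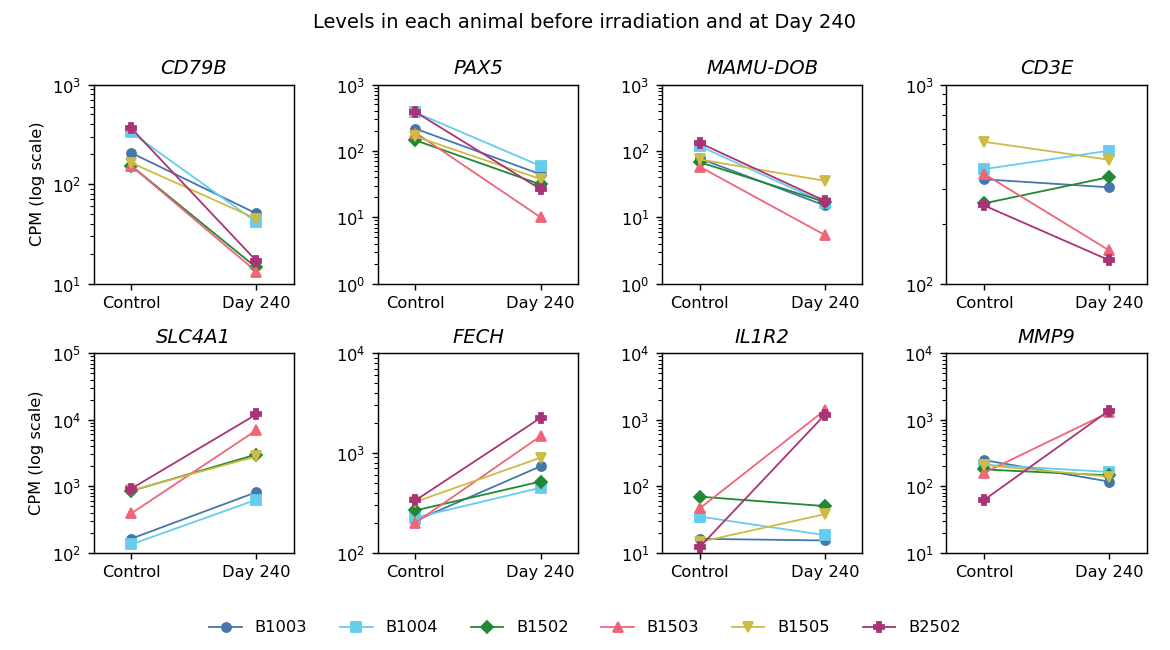
Levels of 8 genes in CPM (log axis) in the control and the Day 240 library of each animal, joined by a line. CD79B, PAX5 and MAMU-DOB fall in all 6 animals, the Day 240 level of CD3E lies within the range of the controls in 4 of them, SLC4A1 and FECH rise in all 6, and IL1R2 and MMP9 are far higher in B1503 and B2502 than in all other libraries.

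Other genes used by B cells and their descendants fell in part. Of 11 plasma cell genes, 5 fell and 0 rose (median -0.76), beside 3.51% called lower over all genes tested. POU2AF1, the OCT coactivator of B cells, was at 29.2 to 57.1 CPM in the controls and 9.75 to 18.4 CPM at Day 240 (log2FC -1.49), and CD38, an ectoenzyme found on several lymphocytes, at 199.9 to 374.7 and then 59.7 to 180.2 CPM (log2FC -1.31). Neither gene's groups overlapped. MZB1, an endoplasmic reticulum helper of antibody assembly, fell from 13.9 to 27.3 CPM in the controls to 5.13 to 18.2 CPM, with overlap (log2FC -1.07, adjusted p = 0.0462). The genes of antibody secretion in the list did not move alike, since MZB1 fell and others did not. JCHAIN, the joining chain of IgM and IgA, was at 0.26 and XBP1, the secretory factor, at 0.42. PRDM1, the plasma cell master regulator, was at 0.55, and none of these 3 passed the test. The number called lower was 1 without B1503, 2 without B1003 or B1004 and 3 without B1502. CD38 missed the test without B1503 (-1.18), and MZB1 when any animal but B1505 was left out (-1.18 to -0.86).

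Of 9 MHC class II genes, 3 fell and 0 rose (median -0.86), beside 3.51% called lower over all genes tested. MAMU-DOB, a chain of the peptide-loading modulator DO that B cells express, was at 57.9 to 131.6 CPM before irradiation, with a median of 75.7. At Day 240 it was at 5.40 CPM in B1503, 35.4 in B1505 and 15.0 to 17.7 in the other 4. No Day 240 library reached the lowest control (log2FC -2.40, SE 0.28, adjusted p = 0.00192). Its partner MAMU-DOA (-2.10) and the class II transactivator CIITA (-1.57) were the other called members. CIITA missed the test without B1004 or B1503 (-1.64 to -1.24). CD74, the invariant chain that all antigen-presenting cells express, was lower in 6 of 6 animals but did not pass the test (log2FC -0.86, SE 0.33, adjusted p = 0.116). By animal the list median was -2.16 in B1503 and -2.03 in B2502 and between -0.66 and -0.23 in the other 4.

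Of 6 naive lymphocyte genes, 4 fell and 0 rose (median -1.16), beside 3.51% called lower over all genes tested. Those that fell were the lymph node homing receptor CCR7 (-1.40), the factors LEF1 (-1.37) and TCF7 (-1.25) and the repressor BACH2 (-1.07). CCR7 was at 162.5, 127.8, 67.8, 104.3, 211 and 164.1 CPM in the controls and at 81.2, 87.3, 21.1, 13, 183.5 and 35.9 CPM at Day 240. All 6 animals fell, B1505 by the least, and the groups overlapped (adjusted p = 0.0336). The count of naive genes called was 0 without B1004 and 1 without B1003, B1502, B1503 or B2502, where CCR7 ran from -1.59 to -1.11. Of 18 chemokine receptors, 4 fell (CXCR5, CCR7, CCR4 and CCR6, which guide B cells, naive lymphocytes and T helper subsets) and 1 rose (CCR1 of monocytes and neutrophils, 1.36). The shares over all genes tested were 3.51% lower and 3.26% higher. Leaving out B1004 or B1503, among others, ended the call of CCR4 (-1.48 to -1.17), CCR6 (-1.30 to -1.03) and CCR1 (1.20 to 1.44). CXCR4, the receptor that retains cells in marrow, gave a log2FC of 0.01 (adjusted p = 0.993).

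T cell receptor genes gave no call. None of 16 rose or fell by edgeR (median -0.34). At an unadjusted p below 0.05, 4 were lower, DESeq2 called 2, and 3 were higher without B1503 and B2502. The shares over all genes tested were 27.9% at that p in either direction, 15.9% by DESeq2 and 5.48% higher without these 2 animals. CD3E, a chain of the T cell receptor complex, was at 334.3, 375.8, 252.9, 356.3, 515.8 and 247.2 CPM in the controls and at 304.6, 465.3, 342.8, 147, 418.7 and 131.2 CPM at Day 240. B1503 and B2502 were the 2 lowest, while B1004 and B1502 were above their own controls (log2FC -0.31, SE 0.25, adjusted p = 0.44). CD3E was higher by 0.08 without B1503 and B2502.

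Cytotoxic lymphocyte genes were higher in part: 4 of 17 rose and 0 fell (median 0.42), beside 3.26% called higher over all genes tested. CST7, which encodes cystatin F, an inhibitor of granule proteases, was at 62.8, 84.2, 57.6, 42.9, 71.3 and 56.5 CPM before irradiation and at 110.6, 179.4, 109.2, 97.3, 91 and 127.8 CPM at Day 240. Every Day 240 library was above every control, as in 1.6% of all genes tested (log2FC 0.92, SE 0.17, adjusted p = 0.0113). FGFBP2, secreted by natural killer and cytotoxic T cells, rose by 1.26, NKG7, a granule membrane protein, by 0.83 and KLRD1, a natural killer receptor chain, by 0.74 on the log2 scale. The killing effectors PRF1 (perforin, -0.15) and GZMB (granzyme B, -0.23) did not pass the test. When the 4 S0 libraries of Day 240 were set against 4 S0 control libraries of other animals, NKG7 was at -0.08 and CST7 at 0.20, neither of them called, and 1 of the 17 genes was called. The cytotoxic count was also 0 without B1004, 1 without B1003, B1502 or B1503 and 6 without B2502. CST7 missed the test without B1004 (0.89), and FGFBP2 (1.05 to 1.31), NKG7 (0.72 to 0.96) and KLRD1 (0.60 to 0.79) without B1003, B1004, B1502 or B1503.

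Most erythroid genes were higher at Day 240. Of 27 tested, 20 rose and 0 fell, beside 3.26% called higher over all genes tested, with a median log2FC of 1.81. In all 6 animals 20 were higher, against 1113 of the 13751 genes tested. In 9 of 27 every Day 240 library lay above every control library, against 220 of the 13751 genes tested (1.6%). SLC4A1, the band 3 anion exchanger of the red cell membrane (chromosome 16, 55510407 to 55531543, minus strand), was at 161.3, 132.2, 845.8, 387, 860.2 and 914 CPM in the controls. At Day 240 it was at 810.4, 622.9, 2992, 6934, 2801 and 12020 CPM. Each animal rose, but the males B1003 and B1004 started low and at Day 240 still lay below the highest control (6.24-fold, log2FC 2.64, SE 0.39, adjusted p = 0.00544).

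FECH, ferrochelatase, which closes haem synthesis, was at 208.4, 224, 264.4, 198.7, 322.5 and 333.5 CPM and then at 734, 446.6, 515.6, 1473, 896.1 and 2248 CPM. Its groups did not overlap, and B1503 and B2502 were the highest (log2FC 1.81, SE 0.31, adjusted p = 0.00873). ALAS2, which opens haem synthesis in red cells, was at 2249 to 5444 CPM in the controls and 5435 to 31500 CPM at Day 240 (log2FC 1.54, adjusted p = 0.0428). TSPO2 rose from 2.15 to 8.51 CPM to 19 to 88.6 CPM, 8.24-fold. Among the regulators, KLF1 rose by 2.11 and GATA1 by 1.47, and the erythropoietin receptor EPOR rose by 1.81. The haemoglobin chaperone AHSP (2.16) and the cytoskeletal proteins EPB42 (2.09) and DMTN (2.06) also rose. ALAS2 missed the test without B1003, B1004, B1503 or B1505 (1.36 to 1.67), GATA1 without any animal but B1502 (1.14 to 1.59), and EPOR without B1004 or B1503 (1.54 to 1.80).

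Both globin genes tested varied in direction between animals. HBB, beta globin, was at 93.2, 47.2, 188.7, 32, 84.2 and 229.9 CPM in the controls and at 969.3, 19.2, 9.93, 19.7, 485.1 and 56.4 CPM at Day 240. B1003 and B1505, the animals whose Day 240 libraries had numbers above 0, were higher than their own controls, and the 4 animals with S0 libraries were lower (log2FC -0.49, SE 0.94, adjusted p = 0.763). The kit that removed ribosomal RNA is made to remove globin transcripts as well, and its part in the HBB values was not tested. The difference by library number, S0 minus other, was -4.96 on the log2 scale for HBB (SE 0.84, adjusted p = 0.608, 4 animals against 2). When B1003 and B1505 were left out, HBB was called lower (-2.00). HBA, alpha globin, was higher in 3 animals and lower in 3 (log2FC -0.33, adjusted p = 0.828).

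By animal the erythroid median was 1.91 in B1003, 1.35 in B1004, 0.53 in B1502, 2.55 in B1503, 1.24 in B1505 and 3.01 in B2502. With B1503 and B2502 left out, 20 of 27 genes were still called higher (median 1.28). Leaving out 1 animal gave 14 to 21 called genes. Among S0 libraries alone, with controls of other animals, 16 of 27 were higher. Day 30 gives a check within the same number and the same animals, since B1004, B1502, B1503 and B2502 have S0 libraries at both draws. There edgeR called 0 of 27 erythroid genes, with 13 higher at an unadjusted p below 0.05 and 8 called by DESeq2 (median 0.74). In that comparison 14% of all genes tested had an unadjusted p below 0.05 in either direction, and DESeq2 called 3.32%. Day 30 itself lay above control, with erythroid animal medians of 0.4 to 2.61.

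The promoter of EPOR is shown because this gene rose and holds AGATAA or its reverse complement TTATCT, the letters that GATA factors are known to bind. These letters occurred in the 250 bases before the start of 7 of 27 erythroid genes (25.9%: among them AHSP, GATA1, EPB42, EPOR and DMTN), of 4 of 20 B cell genes (20%) and of 936 of 13655 genes (6.85%). The EPOR promoter is chr19:11144305-11144554, minus strand, with the match in capitals beginning 56 bases before the gene start.
EPOR promoter: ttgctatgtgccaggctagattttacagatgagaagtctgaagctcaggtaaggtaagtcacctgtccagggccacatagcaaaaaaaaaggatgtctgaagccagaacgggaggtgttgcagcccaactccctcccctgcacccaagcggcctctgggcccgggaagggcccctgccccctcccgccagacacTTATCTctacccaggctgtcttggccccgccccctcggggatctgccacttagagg
B cell genes held the same letters at a share close to that of the erythroid genes, so the match does not separate the lists.

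**Figure D3:**
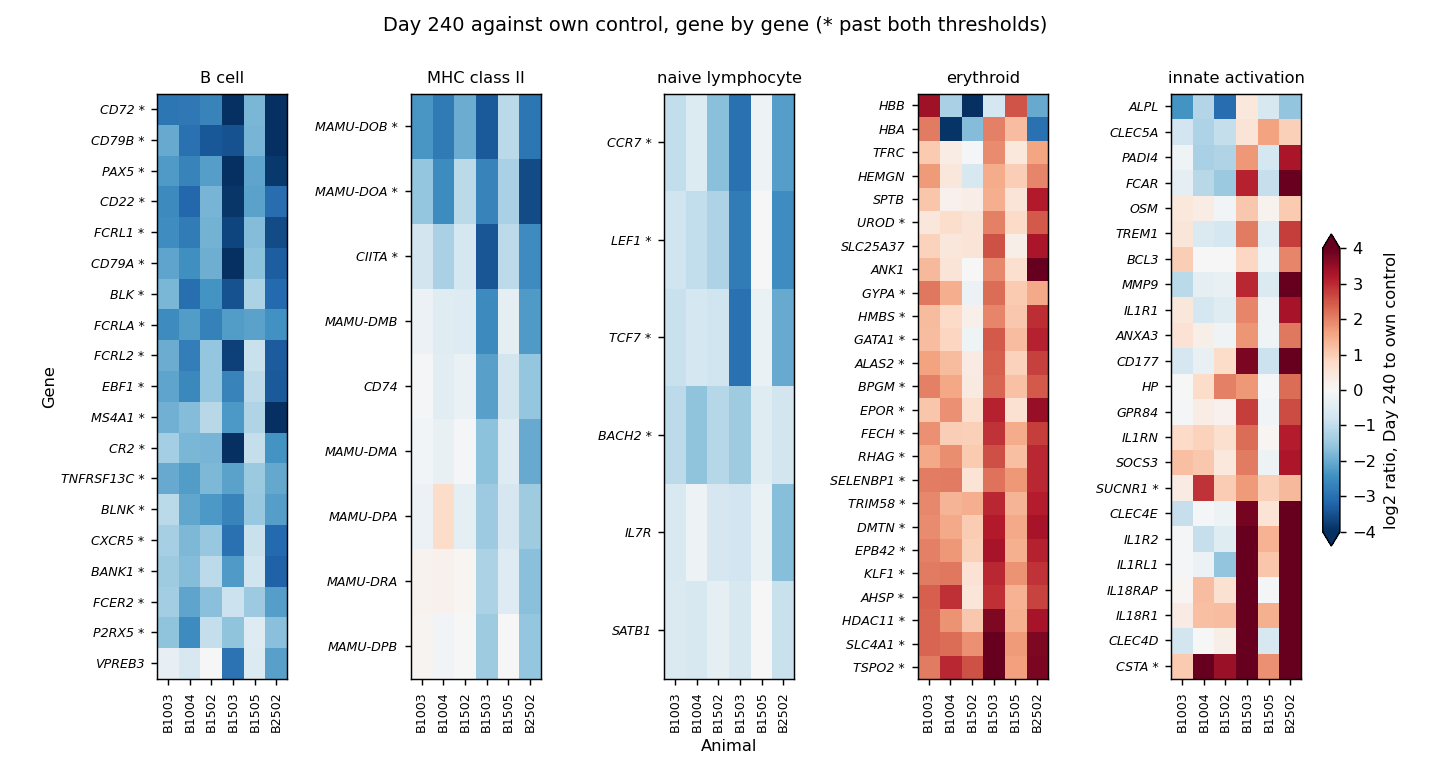
Log2 ratio of Day 240 to own control (blue lower, red higher, limits -4 and 4) for tested genes of 5 lists, by animal, without 3 genes that are not reported here. A star marks a gene past both thresholds: 18 of 19 B cell genes drawn, 3 of 9 MHC class II, 4 of 6 naive lymphocyte, 18 of 25 erythroid and 2 of 23 innate activation genes.

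Neutrophil and innate genes divided the animals. Over all genes tested, 3.26% were called higher and 3.51% lower. None of 15 mature neutrophil genes was called (median 0.57), 1 of 11 neutrophil granule genes rose (median 1.1), 2 of 23 innate activation genes rose (median 1.24) and none of 11 glucocorticoid responsive genes was called (median 0.62). The lists with no call held 1 gene each at an unadjusted p below 0.05 by edgeR, and DESeq2 called 0. The shares of all genes tested were 27.9% and 15.9%. The innate activation median was 2.24 in B1503 and 3.27 in B2502, against -0.11 to 0.01 in the other 4 animals. IL1R2, the decoy receptor for interleukin 1 and a known glucocorticoid target, was at 16.1, 34.8, 69.4, 46.1, 14.4 and 12.1 CPM in the controls. At Day 240 it was at 15.2, 18.2, 50, 1391, 37.8 and 1188 CPM. B1503 and B2502 lay far above all 10 other libraries, which overlapped (log2FC 1.5, SE 1.01, adjusted p = 0.344).

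MMP9, a gelatinase of neutrophil granules, was at 1290 CPM in B1503 and 1376 in B2502 at Day 240, against 61.7 to 246.1 CPM in the controls and 117.1 to 163.4 in the other 4 animals. The glucocorticoid responsive factor ZBTB16 was at 363.9 and 335.5 CPM in these 2 libraries and at 8.27 to 27.2 CPM in the other 10. FKBP5, a chaperone induced by glucocorticoids, was at 1335 and 1355 CPM, against 123.1 to 242.9 CPM in the other 10. S100A8, a subunit of the neutrophil protein calprotectin, was at 623.3 and 463 CPM against 29.6 to 89.7 CPM. None of these 5 genes passed the test over 6 animals. The labels do not give dexamethasone by animal, and its part in these values was not tested.

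Without B1503 and B2502, 3 innate activation genes were higher and 3 lower (median -0.04), and 4 of 15 mature neutrophil genes were lower (median -0.20). The shares over all genes tested in that setting were 5.48% higher and 3.82% lower. CSTA, cystatin A, a cysteine protease inhibitor of epithelium and neutrophils, rose, from 0.084 to 1.05 CPM in the controls to 2.41 to 21.9 CPM at Day 240 (log2FC 3.75, SE 0.64, adjusted p = 0.00884). Its Day 240 levels were low, but no library overlapped the controls. SUCNR1, the succinate receptor, rose by 1.38. Both were higher in 6 of 6 animals, as were IL18R1 (2.37) and IL1RN (1.29), which did not pass the test. CRISP3, a secondary granule protein, rose from 0.603 to 7.47 CPM to 2.98 to 43.5 CPM (log2FC 2.39). Of 13 Toll-like receptor and inflammasome genes, TLR1 (1.21) and TLR6 (0.91), which pair with TLR2 to sense bacterial lipoproteins, rose. TLR1 did not overlap its controls. Of 11 monocyte genes, LYZ, lysozyme, rose in 6 of 6 animals (log2FC 1.38, adjusted p = 0.0136) and no other member was called. Beside the counts of these 2 lists, the share called higher over all genes tested was 3.26%. CRISP3 (2.20 to 2.34), SUCNR1 (1.06 to 1.45), TLR1 (0.99 to 1.15), TLR6 (0.74 to 0.96) and LYZ (1.19 to 1.23) missed the test without B1004 or B1503, SUCNR1 also without B1502, and TLR6 also without B1003 or B2502. CSTA passed without any 1 animal.

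Few interferon genes were called: 3 of 32 rose (median 0.26), beside 3.26% over all genes tested, and 0 rose without B1503. By animal the list median was 0.78 in B1503 and 1.91 in B2502, the libraries that stood apart, and -0.30 to 0.02 in the other 4. With both left out, 3 genes were higher and 2 lower (median -0.16), beside 5.48% and 3.82% over all genes tested. CMPK2, a mitochondrial nucleotide kinase induced by interferon, was at 15.8, 8.27, 11.1, 10.4, 12.9 and 18.2 CPM and then at 65.2, 11.2, 26.2, 90.5, 53.5 and 223.3 CPM. Each animal rose, B1004 the least and B2502 the most (log2FC 2.11, SE 0.37, adjusted p = 0.00992). IFIT1 (1.56) and SAMD9 (1.33), both interferon-induced antiviral genes, also rose, while MX1 (-0.57) and OAS2 (-0.52) did not pass the test. CMPK2 was at 1.90 without B1503, and missed the test there. IFIT1 (1.32 to 1.53) missed it without B1003 or B1503, and SAMD9 (1.12 to 1.20) without B1004 or B1503.

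Of 22 p53 targets, 1 rose and 2 fell (median -0.03), beside 3.26% called higher and 3.51% lower over all genes tested. Such small counts are not read as a result about the list. FAS, the death receptor, rose from 24.5 to 43.5 CPM to 51.5 to 81.3 CPM without overlap (log2FC 0.85, adjusted p = 0.0227). PHLDA3, an AKT inhibitor, fell by 1.13 and POLH, a translesion polymerase, by 0.98, also without overlap. Over all genes tested, 1.6% lay above every control library and 3.35% below. CDKN1A, which encodes the cell cycle inhibitor p21, was higher in 6 of 6 animals, with an adjusted p of 0.0671 (log2FC 0.61, SE 0.19). The 3 called genes missed the test without B1003, B1004 or B1503, with FAS at 0.74 to 0.89, PHLDA3 at -1.19 to -1.10 and POLH at -1.04 to -0.79. PHLDA3 also missed it without B1505 and POLH without B2502.

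The other lists held few calls, beside 3.26% called higher and 3.51% lower over all genes tested. None of 15 platelet, 5 eosinophil, 8 basophil, 7 complement and macrophage, 17 TGF-beta and matrix remodelling or 7 heat shock genes was called by edgeR. Of these 59 genes 10 had an unadjusted p below 0.05, and DESeq2 called 6, beside 27.9% and 15.9% of all genes tested. TGFB1, the cytokine at the centre of radiation fibrosis, gave 0.16 (adjusted p = 0.672). Of 17 hypoxia and glycolysis genes 2 rose, BNIP3L, which clears mitochondria from maturing red cells (2.02), and LDHA, lactate dehydrogenase A (0.98). Of 15 immediate early genes FOSB rose (1.22). Of 23 proliferation genes NUSAP1 (1.01) and BUB1B (0.97), both of mitosis, rose and MCM5 (-0.93), a replication helicase subunit, fell. Of 55 nuclear genes of oxidative phosphorylation 6 rose, COX7B by the most (1.86). Of 75 ribosomal protein genes 2 rose, RPS21 (1.29) among them, a share close to that over all genes. BNIP3L and FOSB passed without any 1 animal, while LDHA, NUSAP1, BUB1B, MCM5, COX7B and RPS21 each missed the test in 3 to 5 of the 6 leave-outs, without B1004 and without B1503 in every case. The oxidative phosphorylation count was 0 without B1503, 1 without B1004, 2 without B1003 and 4 or 5 in the other leave-outs, and the ribosomal protein count was 15 without B2502, 2 without B1505 and 1 in the others. When B1503 and B2502 were both left out, 21 ribosomal protein genes were called higher, beside 5.48% of all genes tested. The mitochondrially encoded genes were not analysed here.

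The course of the B cell genes can be read from the other draws of the same 6 animals (96 libraries in all), each against its own control. The B cell median was already low at Day 3, from -2.19 to -0.85. At Day 30 it was -0.67 to 0.38, and at Day 60 -0.10 to 0.26. At Day 90 it spread from -1.94 to 0.55, with a median of -1.2 over the animals. It was low in every animal at Day 120 (-2.39 to -0.71), Day 150 (-3.24 to -0.93), Day 180 (-3.56 to -1.49) and Day 210 (-2.97 to -1.23). At Day 240 every animal was at or below -1.47, and at Day 270 the animals spread from -3.84 to -0.28.

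CD79B followed the same course. At Day 60 it was at 84.4 to 328.3 CPM, and at Day 210 at 9.71 to 52.3 CPM. At Day 270 it was at 155.2 CPM in B1003, 71.4 in B1004, 32 in B1502, 6.43 in B1503, 37.5 in B1505 and 7.39 in B2502. B1003 was then the animal nearest to its own control level, 206.1 CPM, while B1503 and B2502 were the lowest.

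The Day 30 libraries allow the B cell fall to be looked at within S0. In B1004, B1502, B1503 and B2502, 88 genes (0.64%) differed between Day 240 and Day 30, 83 of them lower at Day 240 (0.604%). Of 20 B cell genes 18 were among the lower ones, with a median of -2.64. By animal the median against Day 30 was -2.06 in B1004, -1.94 in B1502, -3.9 in B1503 and -3.21 in B2502. This comparison was not fitted without both B1503 and B2502. CD79B was lower by 3.31 on the log2 scale (adjusted p = 0.00185). Of the rest of the lists, 2 plasma cell genes, 2 MHC class II genes and 1 chemokine receptor were lower and 1 Toll-like receptor gene was higher. With S0 control libraries of other animals in place of their own, 19 of 20 B cell genes were lower at Day 240. The B cell median of the same 4 animals against their own controls was -2.51, beside -2.64 against Day 30. The B cell count was 0 without B1502 (median -3.02), where no gene of any kind was called, and 17 to 20 without each of the other 3. The total of 88 was unsteady, with 0 genes called without B1502 and 2318 without B1004, and DESeq2 called 456.

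**Figure D4:**
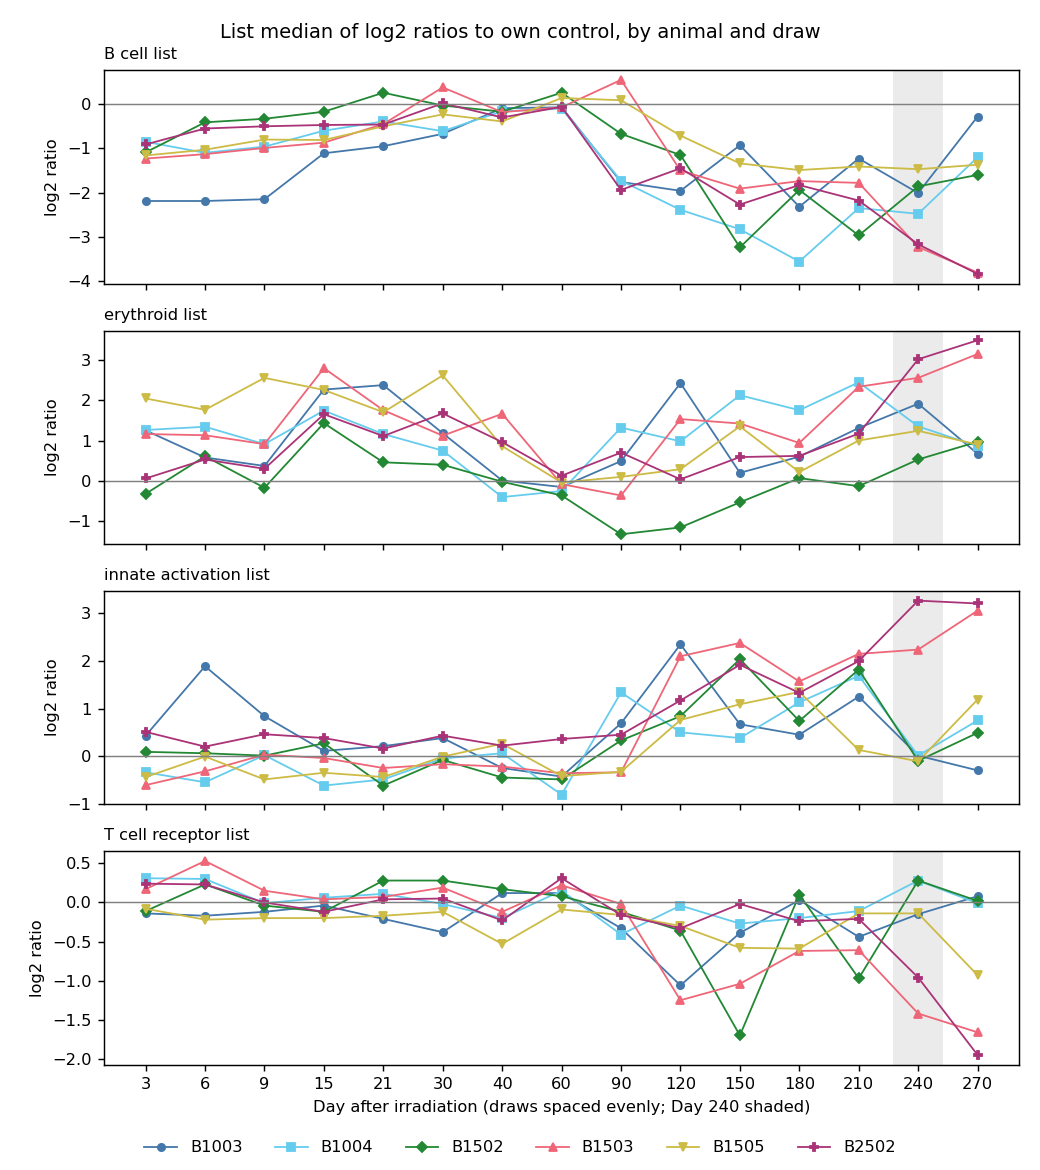
List median of the log2 ratio to the animal's own control at each draw, for B cell, erythroid, innate activation and T cell receptor genes, with 1 line per animal and Day 240 shaded. B cell medians return to between -0.10 and 0.26 at Day 60 and stay below 0 from Day 120 on, and innate activation splits at Day 240 into B1503 and B2502 and the other 4 animals.

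Innate activation genes had a different course. The median over the 23 genes was above 0 in all 6 animals at Day 120 (0.50 to 2.35), Day 150 (0.38 to 2.38), Day 180 (0.45 to 1.57) and Day 210 (0.13 to 2.15). At Day 240 it was near 0 in 4 animals and 2.24 and 3.27 in B1503 and B2502. At Day 270 it was -0.3 in B1003, 0.75 in B1004, 0.49 in B1502 and 1.19 in B1505, and 3.06 and 3.21 in B1503 and B2502. No gene of the list was called between Day 240 and Day 270.

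Day 210 and Day 240 were compared directly in the same animals. Of 13751 genes 1762 (12.8%) differed, 1124 (8.17%) higher and 638 (4.64%) lower at Day 240. The count was 302 without B1505, 442 without B1003, 780 without B1004, 936 without B1503, 2872 without B2502 and 3314 without both B1503 and B2502. It was 837 when the animals were not paired. Few B cell genes differed between these draws: 0 of 20 were higher, 1 was lower, a share close to that over all genes, and the median difference was -0.40, with animals from -1.71 to 1.12. The gene called was TNFRSF13C (-1.19, adjusted p = 0.0186), which missed the test without B1003, B1503 or B1505 (-1.21 to -1.01). The count lower was 0 in those 3 leave-outs and 5 without B1502.

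Ribosomal protein genes were higher at Day 240 than at Day 210. Of 75, 44 rose and 0 fell, beside 8.17% called higher over all genes tested. The median was 0.97 against 0.01 over all genes. By animal the median was 1.00, 1.46, 0.68, 0.39, 1.96 and 0.24, so B1505 and B1004 rose the most and B2502 the least. Without both of the animals that stood apart, 70 of 75 rose, where 1991 of the 13751 genes tested were called higher. Without B1505, 27 of 75 rose. Against control, Day 210 was the low draw, with animal medians of -1.50 to -0.20, and Day 240 lay between -0.95 and 1.08. Of 23 proliferation genes 12 rose (median 0.81), of 32 interferon genes 9 (0.67), of 55 nuclear oxidative phosphorylation genes 12 (0.38), of 17 cytotoxic genes 6 (0.37) and of 27 erythroid genes 5 (0.51). LYZ rose by 0.96 and IFIT1 by 1.55. LYZ missed the test in every leave-out but that of B2502 (0.77 to 1.09), and IFIT1 passed in all 6. These counts moved when 1 animal was left out. The proliferation count was 2 without B1505, 3 without B1003, 6 without B1004 and 8 without B1502. The interferon count was 3 without B1505, 4 without B1003 or B1503, 5 without B1004 and 16 without B1502. The oxidative phosphorylation count was 4 without B1505, 8 without B1003 and at least 9 otherwise. The cytotoxic count was 2 without B1003 or B1505, and the erythroid count was 1 without B1505, 2 without B1003 or B1503, 3 without B1502 and 9 without B1004.

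Platelet genes were lower at Day 240 than at Day 210: 10 of 15 fell and 0 rose, with a median of -1.30. The share called lower over all genes tested was 4.64%. The animal medians were -0.12, -1.65, -1.43, -2.67, -1.10 and -0.28, all below 0 and least so in B1003 and B2502. The count was 2 without B1505, 6 without B1004 and 5 when the animals were not paired. Of 15 immediate early genes 4 fell, among them FOS (-0.81), and of 23 innate activation genes 3 fell, beside the same 4.64%. The immediate early count was 0 without B1505, 1 without B1003 or B1004 and 3 to 5 in the other leave-outs, the innate activation count 2 in each leave-out but that of B2502, where it was 8. FOS missed the test without B1003, B1004, B1502 or B1505 (-0.84 to -0.67). With B1503 and B2502 left out, 15 of 23 innate activation genes and 9 of 15 mature neutrophil genes were lower at Day 240. In that setting 1323 of the 13751 genes tested were called lower. CSF1R, the growth factor receptor of monocytes, was lower by 0.99 (adjusted p = 0.027). It missed the test without B1003, B1503 or B1505 (-1.02 to -0.75). At Day 210 all 6 libraries were S0, while those of B1003 and B1505 at Day 240 were not.

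**Figure D5:**
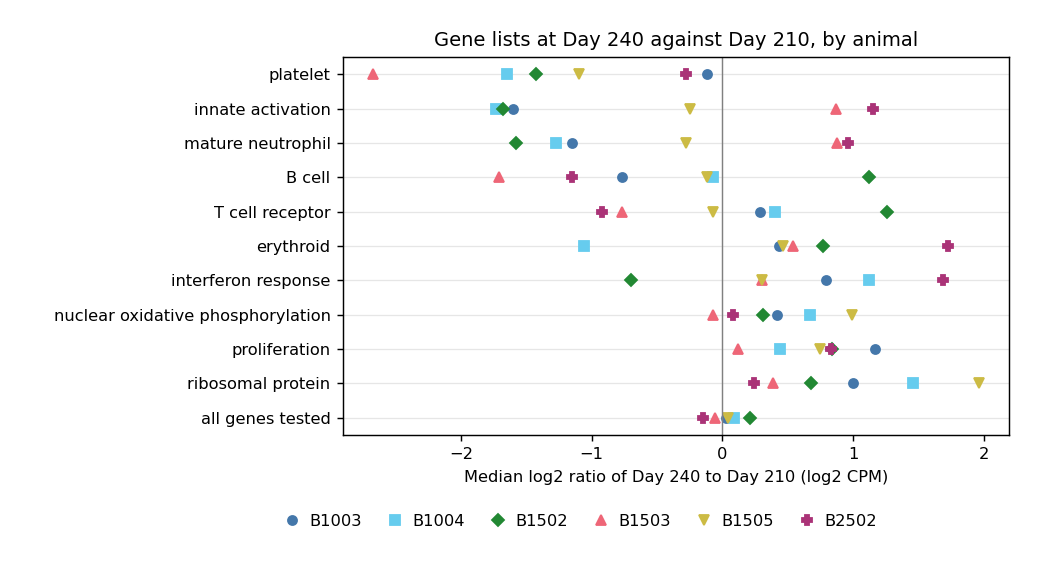
Median log2 ratio of Day 240 to Day 210 of the same animal for 10 gene lists and for all genes tested, with 1 symbol per animal. Ribosomal protein and proliferation medians are above 0 and platelet medians below 0 in all 6 animals, while innate activation runs from -1.73 to 1.15.

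Day 270, the last draw, did not differ from Day 240 by these thresholds: 0 of 13751 genes (0%) were called by edgeR, with 8.63% at an unadjusted p below 0.05, and 35 by DESeq2. The share of genes at least 2-fold from control at Day 270 was 49% in B1503 and 52.2% in B2502, against 3.16% to 14.5% in the other 4 animals, so the 2 animals that stood apart at Day 240 did so again. Without them edgeR still called 0 genes. With all 6 animals, some lists leaned 1 way at an unadjusted p below 0.05, without a call by edgeR. Of 15 platelet genes 12 were lower at Day 240 (list median -0.94), and DESeq2 called 4. Of 75 ribosomal protein genes 49 were higher (0.55), as were 6 of 7 heat shock (0.61) and 10 of 16 T cell receptor genes (0.41). Of 20 B cell genes 1 reached that p, and of 27 erythroid genes 0.

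The Day 240 change did not differ by sex in any gene past the thresholds (0 of 13751, 0%, with 0.967% at an unadjusted p below 0.05 and 0 by DESeq2), in a comparison of 4 females with 2 males. The basophil protease CPA3 was lower than control in all 4 females and higher in both males, a difference of -3.34 on the log2 scale (female minus male, SE 1.14, adjusted p = 0.992). CPA3 was low, at or below 5.37 CPM in all 12 libraries. At Day 240 it had 0 counts in B1503 and B2502, the libraries that stood apart, and 4 in B1502, while B1505 fell by 0.51. By library number, 4 S0 against 2 other Day 240 libraries, 0 genes (0%) differed by edgeR, with 2.48% at an unadjusted p below 0.05, and 4 by DESeq2. With so few animals on 1 side these tests can pass over large differences.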

How the data were processed

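Stranded total-RNA libraries of whole blood, depleted of ribosomal RNA, were read on a NovaSeq (paired-end, 150 bases). Per the labels and the study's methods, the authors trimmed reads with cutadapt 2.10, aligned them to Mmul_10 with STAR 2.7.6a and counted reads per RefSeq gene with Subread 2.0.1. Whether counting used strand is not given in the sources used here, so overlapping and antisense genes may share reads. The deposited counts (21070 genes, 304 samples) were used as they are. The deposited log2 values (16730 genes), normalised by the authors, were used only in an alternative.

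Of the genes, 13751 reached 3 or more counts in 80% or more of the samples and were tested. Counts were fitted with edgeR 4.0.16 (quasi-likelihood test, upper quartile scaling, R 4.3.3) with animal as a block, and p-values were adjusted by Benjamini-Hochberg over all genes tested. All tests were two-sided. A call needed an adjusted p no higher than 0.05 and a change of 1.5-fold or more. CPM used the same scaling over all samples, and log2 ratios per animal used log2 CPM with a prior count of 2. Replicates are separate animals. The animal number pairs the samples because both libraries come from the same animal. As a check, the deviation of the Day 240 library from its group mean was closest to that of the animal's own control in 3 of 6 animals. DESeq2 1.42.0 and limma 3.58.1 served as alternatives, with other scalings, filters, leave-outs and library number settings. The procedure was tested on simulated data. Figures were drawn with Matplotlib 3.10.9.

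The comparison, the gene lists and the tests were chosen with earlier results of these data known. Genes were named by rule: the first of each list, the 2 called genes with the largest change in each main list, and the 5 called genes with the highest and the 5 with the lowest fold change that moved alike in every animal. All other genes named with values, such as PAX5, FECH, IL1R2 and MMP9, were chosen after their values were seen. Some genes and promoter sequences are not reported here, though the genes stay in the counts.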

Additional observations from a re-analysis of the deposited data

How the results depend on the processing

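Shares are percent of the genes tested that were called, and the cause of each shift was not tested unless fewer genes or animals enter by construction. Between Day 240 and control (6.76%), DESeq2 called 15.9%, limma on the deposited log2 values 4.5%, the S0 libraries alone (4 of Day 240 against 4 controls of other animals) 11% and the fit of all samples with the library number range as a term 25%. Leaving out 1 animal gave 1.59% (without B1503) to 7.28% (without B1505), with 1.75% without B1004 and 2.32% without B1003. The animal block moved this comparison from 5.48% without it to 6.76%, and the naive lymphocyte genes called from 1 to 4. Between Day 240 and Day 210 (12.8%), the fit with no animal block gave 6.09%, and leaving out 1 animal gave 2.2% (B1505) to 20.9% (B2502). With B1503 and B2502 left out, a setting chosen after seeing the data, it was 24.1% by edgeR and 23.3% by DESeq2. Between Day 240 and Day 270 (0%), DESeq2 called 0.255%, edgeR with no filter on low counts 0.225%, DESeq2 without B1503 and B2502 0.313%, and leave-outs 0% to 0.32% (B1003). Between Day 240 and Day 30 within S0 (0.64%), DESeq2 called 3.32%, no filter gave 2.54%, limma 0.255% and no animal block 0.313%, and leave-outs ran from 0% (B1502) to 16.9% (B1004). The difference by library number (0%) was 0.0291% by DESeq2, 0.00534% with no filter and 0% to 0.0145% over the leave-outs. The difference by sex was 0% under every alternative run. Other scalings, thinning and the stricter count filter kept each of these shares within 1.5 times its value.

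Of the genes named in the comparison with control, those that changed direction were not called there, other than NKG7. All values here are log2 fold changes. Without B1503 and B2502, edgeR and DESeq2 gave 0.077 and 0.087 for CD3E, -0.195 and -0.186 for CSF3R, -0.329 and -0.412 for CLEC4D, -0.321 and -0.311 for FKBP5, -0.487 and -0.478 for SLC2A3, -0.481 and -0.471 for CXCR4, 0.456 and 0.329 for HBB, -0.036 and -0.031 for IL1R2 and -0.577 and -0.568 for MMP9, and DESeq2 gave 0.042 for EPX. With the 9.8 Gy animals only, CSF3R was at -0.053, SLC2A3 at -0.184, CXCR4 at -0.123 and HBB at 0.042. With S0 libraries only, NKG7 was at -0.083, EPX at 1.892, C1QA at -0.022, TGFB1 at -0.614, NDUFA1 at 0.701, RPLP0 at -0.02 and HBB at 0.853. With all samples and the library number range as a term, EPX was at 0.514, TGFB1 at -0.088, MKI67 at 0.049 and NDUFA1 at 0.66. NDUFA1 was at 0.006 by DESeq2, RPLP0 at -0.11 without the animals whose Day 240 library number was above 0, and HBB at 1.209 with no animal block. Leaving out 1 animal gave -0.239 to 0.017 for PRF1, -0.053 to 0.557 for CSF3R, -0.184 to 0.26 for SLC2A3, -0.359 to 0.045 for MKI67, -0.265 to 0.181 for CXCR4, -0.229 to 0.077 for NDUFA1, -0.121 to 0.255 for RPLP0 and -1.239 to 0.276 for HBB.

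The B cell count was 18 or 19 of 20 lower under every alternative to the comparison with control, and the erythroid count 14 to 21 of 27 higher over the leave-outs. The S0 libraries alone, with controls of other animals, called 8 mature neutrophil and 11 innate activation genes higher, against 0 and 2 in the paired comparison. Depth sets a limit for low genes, since the Day 240 libraries held 4991825 to 9650177 counts. A Dixon test of 98 values over the 6 animals found no single library past its limit. The test weighs the gap between an extreme value and its neighbour, so 2 libraries that stand apart together can hide each other. B1503 and B2502 stood apart together, with Day 240 innate activation medians of 2.24 and 3.27 against -0.11 to 0.01 in the other animals. The Dixon result therefore does not bear on this pair.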
